A study of Mus musculus with 15 samples.

Results

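The 8 genes Tcf4, Spib, Runx2, Bcl11a, Zeb2, Lair1, Pacsin1 and Ly6d are commonly used to characterise plasmacytoid dendritic cells. They were followed here through cultured dendritic cells of 2 Mysm1 genotypes, with and without bacterial lipopolysaccharide (LPS). They were taken as a list by name from the 50554 genes of the deposited tables. All 8 passed the filter on low counts, Ly6d with at most 38 reads in a library.

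Plasmacytoid dendritic cells are round, lymphoid-looking cells that sense viral nucleic acids through endosomal Toll-like receptors and release large amounts of type I interferon. Their identity depends on the transcription factor TCF4, also called E2-2, which binds E-box motifs and acts with SPI-B, BCL11A, RUNX2 and ZEB2, while ID2 blocks E proteins and marks conventional dendritic cells. They develop under the cytokine FLT3 ligand, and marrow grown in GM-CSF gives mainly conventional dendritic cell and macrophage types.

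The cells were bone marrow-derived dendritic cells (BMDCs) from mice with a tamoxifen-inducible CreERT2 recombinase, which every group carried. After tamoxifen, mice with 1 floxed and 1 wild-type Mysm1 allele became Δ/+ and kept wild-type MYSM1, a histone H2A deubiquitinase needed in blood cell development. Mice with 1 floxed allele and 1 allele for a catalytically inactive protein became Δ/DN. Marrow was taken over 12 weeks after tamoxifen and grown for 9 days with GM-CSF, then held for 18 h with 0 ng/mL (US, unstimulated) or 10 ng/mL of LPS, which is sensed by TLR4. The sources used here do not give the age of the mice. Δ/+ had 4 US and 3 LPS libraries and Δ/DN had 4 of each, from 8 cultures of which 7 gave both treatments. Whether each culture came from its own mouse was not stated, so p-values measure the spread between these cultures, which may be technical.

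Each library held between 37256651 and 104041282 counted reads. The series text and the sample fields pair lettered mouse groups with genotypes in opposite ways. Directions between genotypes therefore follow the sample fields, and the other reading would reverse each of them. Total Mysm1 reads were at 46.3 to 54.1 CPM (counts scaled to a common library total after normalisation) in Δ/+ US and at 28.1 to 48.9 CPM in Δ/DN US, and these ranges overlapped. With LPS they did not overlap, at 41.3 to 44.6 CPM in Δ/+ and 30.8 to 40.0 CPM in Δ/DN. Total reads do not show whether the protein was active, so they do not settle the labels. In Δ/DN culture 4, Xist was at 1144 CPM (US) and 1166 CPM (LPS), against at most 0.0645 CPM elsewhere. Ddx3y, on the Y chromosome, was at 0 CPM in that culture, at 1.94 and 3.69 CPM in Δ/DN culture 3, and at 47.2 to 105 CPM in the other libraries. Genotype calls of the members, of the other plasmacytoid genes and of the partners of the member factors are therefore given with and without each of these cultures. Those of the cell type markers are given with all cultures only. The culture markers were present in every library, with Itgax (CD11c) at 842 to 1751 CPM. The B cell marker sum was 2.74 to 8.57 CPM, with 2 of its 12 genes, Ighm and Igll1, at 0 in every library.

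Because TCF4 binds E-boxes, the stretch of 250 bases before the transcription start of 4 members with different responses is shown, with each E-box (CANNTG, which reads the same on both strands) in capitals. Spib and Lair1 fell with LPS, Bcl11a rose with it in Δ/+, and Pacsin1 differed between the genotypes. The sequences are from RefSeq on GRCm38.p6, 5′ to 3′ on the strand of the gene, at chr7:44532072-44532321 (minus) for Spib, chr7:4063205-4063454 (minus) for Lair1, chr11:24080445-24080694 (plus) for Bcl11a and chr17:27684989-27685238 (plus) for Pacsin1.
Spib: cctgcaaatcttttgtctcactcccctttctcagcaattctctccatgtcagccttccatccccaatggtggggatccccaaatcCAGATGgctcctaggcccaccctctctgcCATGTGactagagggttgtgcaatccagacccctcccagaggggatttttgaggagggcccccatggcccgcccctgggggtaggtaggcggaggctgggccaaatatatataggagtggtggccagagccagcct
Lair1: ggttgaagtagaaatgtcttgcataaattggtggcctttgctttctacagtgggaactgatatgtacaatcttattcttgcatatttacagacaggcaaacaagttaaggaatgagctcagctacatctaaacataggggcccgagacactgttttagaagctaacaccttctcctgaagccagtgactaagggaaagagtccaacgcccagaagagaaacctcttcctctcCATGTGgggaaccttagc
Bcl11a: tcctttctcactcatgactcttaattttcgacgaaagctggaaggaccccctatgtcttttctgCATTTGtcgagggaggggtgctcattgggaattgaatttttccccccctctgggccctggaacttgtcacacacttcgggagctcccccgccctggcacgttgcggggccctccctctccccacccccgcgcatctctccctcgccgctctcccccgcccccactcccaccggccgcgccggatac
Pacsin1: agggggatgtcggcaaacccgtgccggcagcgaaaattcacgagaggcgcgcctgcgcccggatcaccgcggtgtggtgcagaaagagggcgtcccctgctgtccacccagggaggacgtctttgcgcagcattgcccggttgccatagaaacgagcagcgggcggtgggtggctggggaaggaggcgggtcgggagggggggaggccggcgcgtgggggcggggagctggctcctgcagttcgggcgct
The Spib stretch held 2 E-boxes, the Lair1 and Bcl11a stretches 1 each, and the Pacsin1 stretch 0. Of all 32851 such stretches in the table, 66.2% held at least 1 E-box, with a median of 1. The motif GAGGAA, the core of the box bound by SPI-B and its relative PU.1, was searched on both strands. It occurred in the Lair1 stretch and in none of the other 3, and in 23.3% of all stretches. In all, 9 stretches of 6 of the 8 members were kept, and Tcf4 and Ly6d are named only. Member stretches on 1 chromosome were left out before this count, so it does not show which members had no match. Runx2 had 1 E-box, and the 4 stretches of Zeb2, which overlap in part, had 0. Binding was not measured in this series.

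Levels between genes were compared as CPM per kilobase of exon. On that scale Zeb2 was the most abundant member in each of the 4 groups, at 23.7 ± 4.98 in Δ/+ US (SD, n = 4), 36.3 ± 1.97 in Δ/+ LPS (n = 3), 15.3 ± 1.53 in Δ/DN US (n = 4) and 30.5 ± 2.67 in Δ/DN LPS (n = 4). In Δ/+ US it was followed by Runx2 at 4.95 ± 0.246, Lair1 at 2.39 ± 0.567, Spib at 1.89 ± 0.832 and Tcf4 at 1.44 ± 0.365 CPM per kilobase. From Lair1 to Spib and from Spib to Tcf4 the step was smaller than the SD of Spib. Pacsin1 was at 0.257 ± 0.126, Ly6d at 0.0714 ± 0.0837 and Bcl11a at 0.0293 ± 0.0103 CPM per kilobase, the last step being within the SD of Ly6d. With LPS Tcf4 moved to the second place, at 11.7 ± 0.787 in Δ/+ and 9.59 ± 1.91 in Δ/DN, above Runx2 at 5.82 ± 0.41 and 4.76 ± 0.712.

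The label of the list was set against other genes of plasmacytoid cells. Siglech, a surface lectin that defines these cells in mice, was at 0 to 0.349 CPM in all 15 libraries, and Ccr9, a homing receptor, was at 0.116 to 1.79 CPM. Other defining genes were higher, with Bst2 at 20.1 to 229 CPM, Irf7 at 9.26 to 768 CPM and Irf8 at 33.2 to 374 CPM. Ptcra and Dntt, of the 30 other plasmacytoid genes listed, did not pass the filter. Id2, the antagonist of TCF4, was at 199 to 583 CPM. With the listed plasmacytoid genes at such unlike levels, the members are described as genes of the whole culture and not as a measure of plasmacytoid cells. In these bulk libraries, fewer cells of a type and less RNA per cell cannot be told apart.

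**Figure D1:**
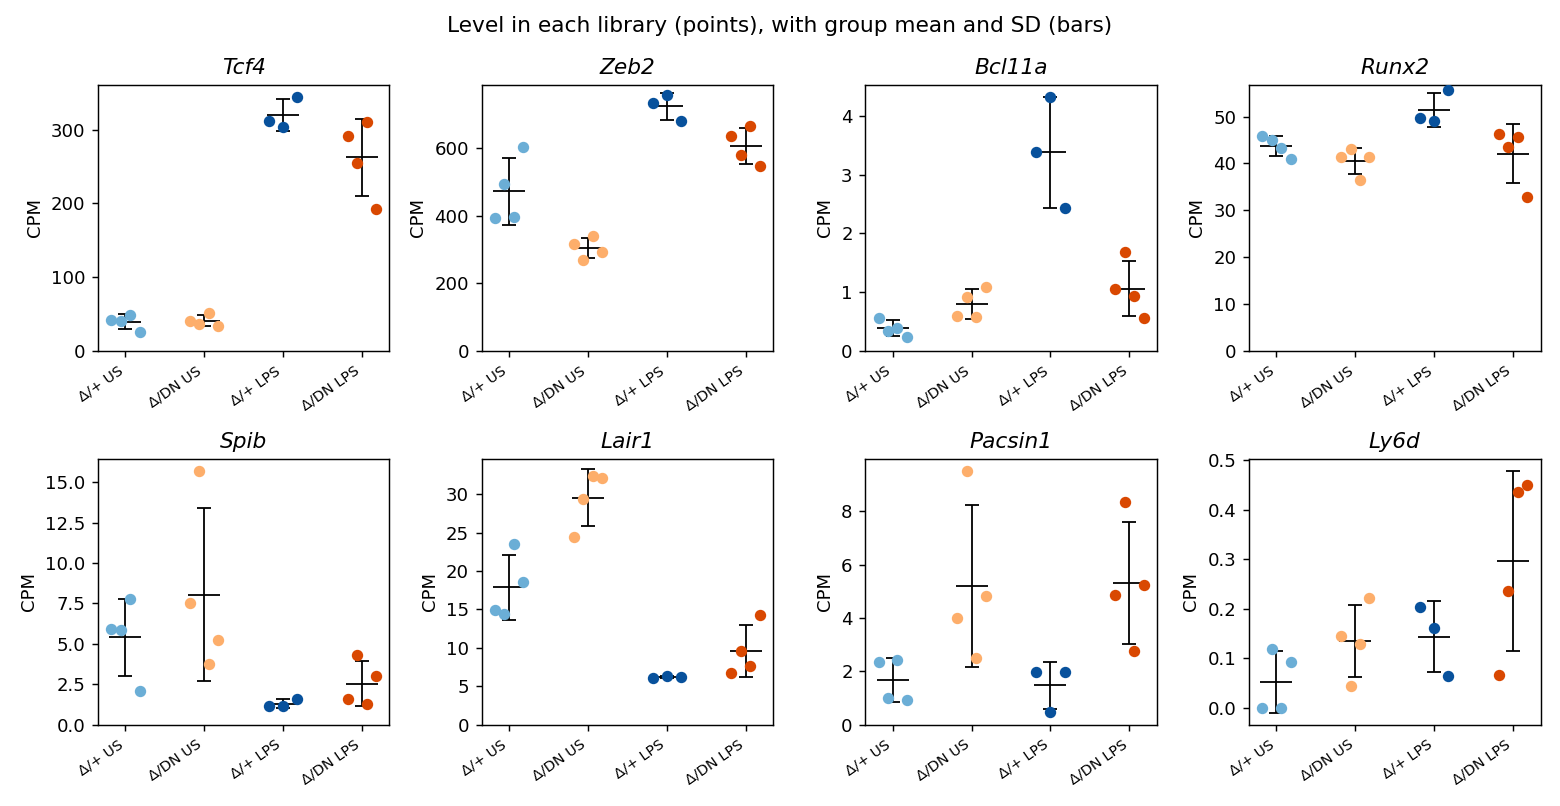
Level of each of the 8 members in CPM (vertical axis, 1 panel per gene, each with its own scale) in the 4 groups; each point is 1 library, and the bars are the group mean and SD. Tcf4 and Zeb2 were higher with LPS in both genotypes without overlap, Lair1 was lower in both, and Bcl11a was highest in the 3 Δ/+ LPS libraries.

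LPS changed most of the transcription factors. After normalisation, Tcf4, Zeb2 and, in Δ/+, Bcl11a rose, and Spib fell. Among the surface and adaptor genes Lair1 fell, while Pacsin1 and Ly6d did not pass the test. In Δ/+, 3 members rose and 2 fell of 8 (edgeR adjusted p under 0.05), when 47.7% of the 20865 genes tested were called (22.4% higher and 25.3% lower). In Δ/DN, 2 rose and 2 fell, when 48.2% of genes were called (23.1% higher and 25.1% lower). In Δ/+ 4 members lay higher and 2 lower with LPS without overlap, when 52.1% of genes tested had groups that did not overlap. In Δ/DN 2 lay higher and 1 lower without overlap, when 40.9% of genes did. With shares this large over all genes, these counts do not set the members apart. The members' median log2 change was 0.43 in Δ/+ and 0.20 in Δ/DN, against -0.08 and -0.09 over all genes tested.

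Tcf4 encodes the E protein that maintains plasmacytoid identity. Without LPS it was at 42.6, 41.2, 48.9 and 25.4 CPM in the Δ/+ libraries and at 40.3, 37.0, 51.2 and 34.1 CPM in the Δ/DN libraries. With LPS it was at 312, 304 and 345 CPM in Δ/+ and at 292, 255, 311 and 192 CPM in Δ/DN. Every LPS library thus lay above every unstimulated one. Tcf4 rose 7.93-fold in Δ/+ (log2 change 2.99 ± 0.21 SE) and 6.42-fold in Δ/DN (2.68 ± 0.20), with adjusted p of 6.56e-08 and 1.12e-07. Within single cultures the ratio of LPS to US was 7.06 to 7.39 in the 3 Δ/+ cultures and 5.64 to 7.25 in the 4 Δ/DN cultures, so it was of similar size in each of them. It was lowest in Δ/DN culture 4, and without both libraries of that culture the change in Δ/DN was 2.74.

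Zeb2, a zinc-finger repressor that holds down Id2 in dendritic cell development, rose by a smaller factor from a higher level. In Δ/+ it was at 394, 496, 397 and 604 CPM without LPS and at 733, 758 and 682 CPM with it. In Δ/DN it was at 317, 271, 341 and 293 CPM without LPS and at 638, 582, 666 and 548 CPM with it. The groups did not overlap in either genotype. The change was 1.59-fold in Δ/+ (log2 0.67 ± 0.14, adjusted p = 0.000816) and 2.00-fold in Δ/DN (1.00 ± 0.12, adjusted p = 1.16e-05). Zeb2os, an antisense gene that overlaps Zeb2, held between 1.84% and 4.32% as many reads as Zeb2 in a library, and whether counting used strand is not given in the sources used here. Id2 itself rose as well, by 0.66 ± 0.16 in Δ/+ and 1.06 ± 0.15 in Δ/DN on the log2 scale (adjusted p of 0.00299 and 3.27e-05).

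Bcl11a encodes a zinc-finger factor required for plasmacytoid and B cell development, and it was low throughout. It was at 0.567, 0.334, 0.398 and 0.244 CPM in Δ/+ US, which is 21 to 43 reads. With LPS it was at 3.38, 4.32 and 2.43 CPM in Δ/+, or 186 to 268 reads, with no overlap. In Δ/DN it was at 0.595, 0.911, 0.572 and 1.10 CPM without LPS and at 1.05, 1.69, 0.941 and 0.567 CPM with it. These Δ/DN values overlapped. Bcl11a rose 8.34-fold in Δ/+ (log2 3.06 ± 0.37, adjusted p = 7.67e-06), and the change in Δ/DN did not pass the test (0.34 ± 0.33, adjusted p = 0.423). Without both libraries of Δ/DN culture 4 the Δ/DN change was 0.81 and passed it (adjusted p = 0.0463).

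Spib encodes an ETS-family factor that acts beside TCF4 in plasmacytoid cells and that B cells also need. It was at 5.91, 5.87, 7.78 and 2.09 CPM in Δ/+ US and at 1.15, 1.13 and 1.61 CPM in Δ/+ LPS. In Δ/DN it was at 7.50, 15.7, 3.75 and 5.24 CPM without LPS and at 1.58, 4.29, 1.26 and 3.00 CPM with it. The Δ/+ groups did not overlap, and in Δ/DN the LPS library of culture 2 exceeded the US library of culture 3. Spib fell 4.65-fold in Δ/+ (log2 change -2.22 ± 0.43, adjusted p = 0.000651) and 2.84-fold in Δ/DN (-1.50 ± 0.37, adjusted p = 0.00391). It was lower with LPS in each of the 7 cultures that gave both treatments, by the least in Δ/DN culture 4 (log2 ratio -0.80).

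Lair1 encodes an inhibitory receptor for collagen carried by many leukocytes, plasmacytoid cells among them. It was at 14.97, 14.3, 23.6 and 18.5 CPM in Δ/+ US and at 6.09, 6.30 and 6.17 CPM in Δ/+ LPS. In Δ/DN it was at 24.4, 29.4, 32.4 and 32.1 CPM without LPS and at 6.71, 9.65, 7.62 and 14.3 CPM with it. All LPS libraries lay below all unstimulated libraries of the same genotype. Lair1 fell 2.76-fold in Δ/+ (log2 change -1.47 ± 0.22, adjusted p = 7.15e-05) and 3.11-fold in Δ/DN (-1.63 ± 0.20, adjusted p = 9.88e-06).

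Runx2, a Runt-family factor with a part in the exit of plasmacytoid cells from marrow, was the steadiest member in CPM. It was at 45.9, 45.0, 43.2 and 40.95 CPM in Δ/+ US and at 49.7, 49.0 and 55.6 CPM in Δ/+ LPS. In Δ/DN it was at 41.3, 43.0, 36.6 and 41.3 CPM without LPS and at 46.2, 43.6, 45.5 and 32.7 CPM with it. The Δ/+ groups did not overlap and the Δ/DN groups did. The log2 change was 0.20 ± 0.10 in Δ/+ and 0.05 ± 0.09 in Δ/DN (adjusted p of 0.127 and 0.696). The Δ/+ value passed the test without Δ/DN culture 4 (0.21, adjusted p = 0.0417) and with library set 2 alone (0.22, adjusted p = 0.0378), library sets being the 2 series of library names marked by a prefix of 2 or 3. Runx2 overlaps the genes Runx2os3 and Supt3, which could share its reads. The same holds for Bcl11a with 4930538E20Rik and for Tcf4 with Gm31439.

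Pacsin1 encodes a membrane-bending adaptor that plasmacytoid cells need for interferon release after Toll-like receptor signals. Its log2 change with LPS was -0.33 ± 0.50 in Δ/+ and 0.05 ± 0.44 in Δ/DN (adjusted p of 0.635 and 0.938), and neither passed the test. Ly6d, a GPI-anchored surface protein that marks lymphoid progenitors able to form B cells and plasmacytoid cells, stayed close to the detection limit. It had 0, 10, 0 and 8 reads in Δ/+ US, 15, 10 and 5 in Δ/+ LPS, 12, 4, 10 and 23 in Δ/DN US and 4, 16, 31 and 38 in Δ/DN LPS. The 2 libraries with 0 reads allow up to 0.0655 and 0.0278 CPM (3 counts, counting error only). The log2 change of Ly6d was 1.75 ± 0.91 in Δ/+ and 1.03 ± 0.75 in Δ/DN (adjusted p of 0.129 and 0.279). With all libraries neither value passed the test, which at these read numbers does not show that Ly6d was unchanged. Without Δ/+ US replicate 2 the Δ/+ value was 3.13 and passed the test (adjusted p = 0.0184).

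**Figure D2:**
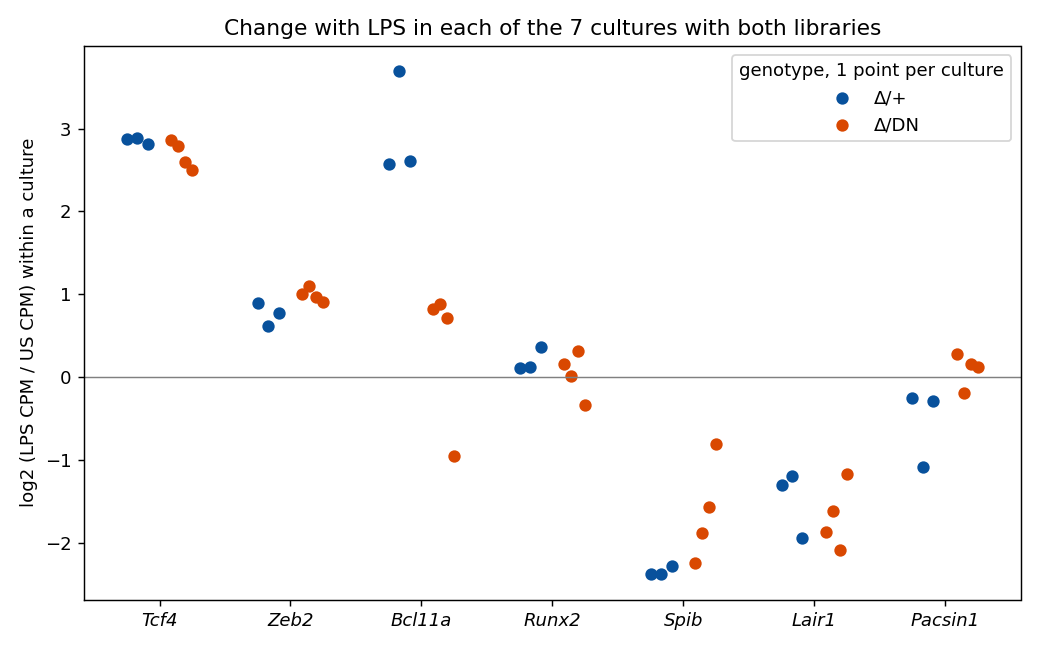
Change with LPS within each culture, as the log2 ratio of LPS to US CPM (vertical axis), for the 7 members other than Ly6d (0 reads in 2 unstimulated libraries); each point is 1 of the 7 cultures with both treatments, coloured by genotype. The points of Tcf4 and Zeb2 lie above 0 and those of Spib and Lair1 below 0 in both genotypes, and the Bcl11a points of the genotypes lie apart, from 2.58 to 3.69 in Δ/+ and from -0.95 to 0.89 in Δ/DN.

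Without LPS, Δ/DN cells had more Pacsin1 and Bcl11a and less Zeb2 than Δ/+ cells. Thus 2 members were higher and 1 was lower of 8, when 10.5% of the 20865 genes tested were called (5.01% higher and 5.45% lower). The members' median log2 difference was 0.74, against 0.01 over all genes tested. The 4 members whose groups did not overlap were these 3 and Lair1, when 12.5% of genes had groups that did not overlap.

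Pacsin1 was at 2.33, 0.990, 2.43 and 0.943 CPM in Δ/+ US and at 3.99, 9.53, 2.48 and 4.82 CPM in Δ/DN US. Every Δ/DN library was above every Δ/+ library, though the lowest Δ/DN library and the highest Δ/+ library were nearly level. The difference was 3.59-fold (log2 1.84 ± 0.47, adjusted p = 0.0273). Bcl11a, with the values given above, was 2.35-fold higher in Δ/DN (1.23 ± 0.36, adjusted p = 0.0417). Each of these 2 calls was lost without Δ/+ US replicate 2 or 4 or without Δ/DN US replicate 2 or 4, and that of Bcl11a also without Δ/+ US replicate 3, with log2 differences of 1.495 to 2.07 for Pacsin1 and 0.94 to 1.48 for Bcl11a over all libraries left out in turn. Both calls were also lost with no library set term (adjusted p of 0.0738 and 0.0877), and that of Pacsin1 with no filter on low counts (adjusted p = 0.0819). Within library set 2 the differences were 1.81 (adjusted p = 0.119) and 0.82 (adjusted p = 0.215), and set 3 held only 1 Δ/+ library.

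Zeb2 was lower in Δ/DN, at 305 ± 30 CPM (SD, n = 4) against 473 ± 99 CPM (n = 4), a 1.59-fold difference (log2 -0.67 ± 0.13, adjusted p = 0.00901). All 4 Δ/DN values lay below all 4 Δ/+ values. The call held within library set 2 (-0.56, adjusted p = 0.0269) and without Δ/DN culture 3 or 4 (-0.71 and -0.62, adjusted p of 0.00516 and 0.0114). It was lost without Δ/+ US replicate 4, the highest library and the only Δ/+ library of set 3 (-0.53, adjusted p = 0.0777).

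Lair1 was 1.57-fold higher in Δ/DN US and just missed the threshold (log2 0.65 ± 0.20, adjusted p = 0.0503). It passed without Δ/DN culture 3 or 4 (0.62 and 0.67, adjusted p of 0.0473 and 0.0322) and without Δ/+ US replicate 3 (0.83, adjusted p = 0.0147). That was the only 1 of the 8 fits with a library left out that passed (0.56 to 0.83, adjusted p from 0.0147 to 0.242). Over all 16 other settings Lair1 passed in 6. The other 4 members did not pass the test. The log2 difference was 0.82 ± 0.37 for Spib (adjusted p = 0.171), 1.00 ± 0.84 for Ly6d (adjusted p = 0.497), 0.11 ± 0.19 for Tcf4 (adjusted p = 0.768) and -0.07 ± 0.09 for Runx2 (adjusted p = 0.684). The Tcf4 value was -0.21 within library set 2 and -0.14 without Δ/+ US replicate 4, so it had no settled direction.

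With LPS, Pacsin1 was again higher in Δ/DN cells, and Bcl11a was lower. Thus 1 member was higher and 1 lower of 8, when 8.6% of genes tested were called (5.37% higher and 3.23% lower). The members' median log2 difference was 0.05, against 0.01 over all genes tested. Groups did not overlap for 5 members, Pacsin1 and Lair1 being higher and Runx2, Bcl11a and Zeb2 lower, when 24.6% of genes had groups that did not overlap.

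Pacsin1 was at 1.96, 0.468 and 1.99 CPM in Δ/+ LPS and at 4.86, 8.34, 2.78 and 5.25 CPM in Δ/DN LPS. The difference was 4.67-fold (log2 2.22 ± 0.54, adjusted p = 0.0289). In both treatments the highest Pacsin1 level was in Δ/DN culture 2, followed by Δ/DN cultures 4 and 1. Bcl11a was 2.80-fold lower in Δ/DN LPS (log2 -1.49 ± 0.37, adjusted p = 0.0274), the opposite of its direction without LPS. The Pacsin1 call was lost without Δ/+ LPS replicate 1 or 2 or Δ/DN LPS replicate 2, and the Bcl11a call without Δ/+ LPS replicate 1 or 2 or Δ/DN LPS replicate 1 or 2, with log2 differences of 1.81 to 2.50 for Pacsin1 and -1.81 to -1.27 for Bcl11a over all libraries left out. The Pacsin1 call was also lost with no filter on low counts (adjusted p = 0.0745) and with no library set term (adjusted p = 0.0700). Within library set 2 the values were 2.15 for Pacsin1 (adjusted p = 0.0643) and -1.30 for Bcl11a (adjusted p = 0.0427), and set 3 held no Δ/+ LPS library.

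Spib was 2.90-fold higher in Δ/DN LPS and just missed the threshold (log2 1.54 ± 0.45, adjusted p = 0.0512). It passed when Δ/DN culture 4 was left out (1.28, adjusted p = 0.04995), as it did without Δ/DN LPS replicate 1 (1.96, adjusted p = 0.0128) or 3 (1.62, adjusted p = 0.0443), with DESeq2 (1.53, adjusted p = 0.00472) and with the replicate number as a block (1.64, adjusted p = 0.0148). It was 0.97 with no library set term (adjusted p = 0.317), 1.18 within library set 2 (adjusted p = 0.112) and 1.55 without Δ/DN culture 3 (adjusted p = 0.0504), and ranged from 1.24 to 1.96 with each library left out in turn (adjusted p from 0.0128 to 0.182). Zeb2 was at 608 ± 53 CPM (SD, n = 4) in Δ/DN LPS and 724 ± 39 CPM (n = 3) in Δ/+ LPS, with a log2 difference of -0.34 ± 0.14 (adjusted p = 0.149). The difference was 0.48 ± 0.23 for Lair1 (adjusted p = 0.209), -0.22 ± 0.11 for Runx2 (adjusted p = 0.215), -0.19 ± 0.22 for Tcf4 (adjusted p = 0.630) and 0.28 ± 0.91 for Ly6d (adjusted p = 0.885). These 5 members did not pass the test.

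**Figure D3:**
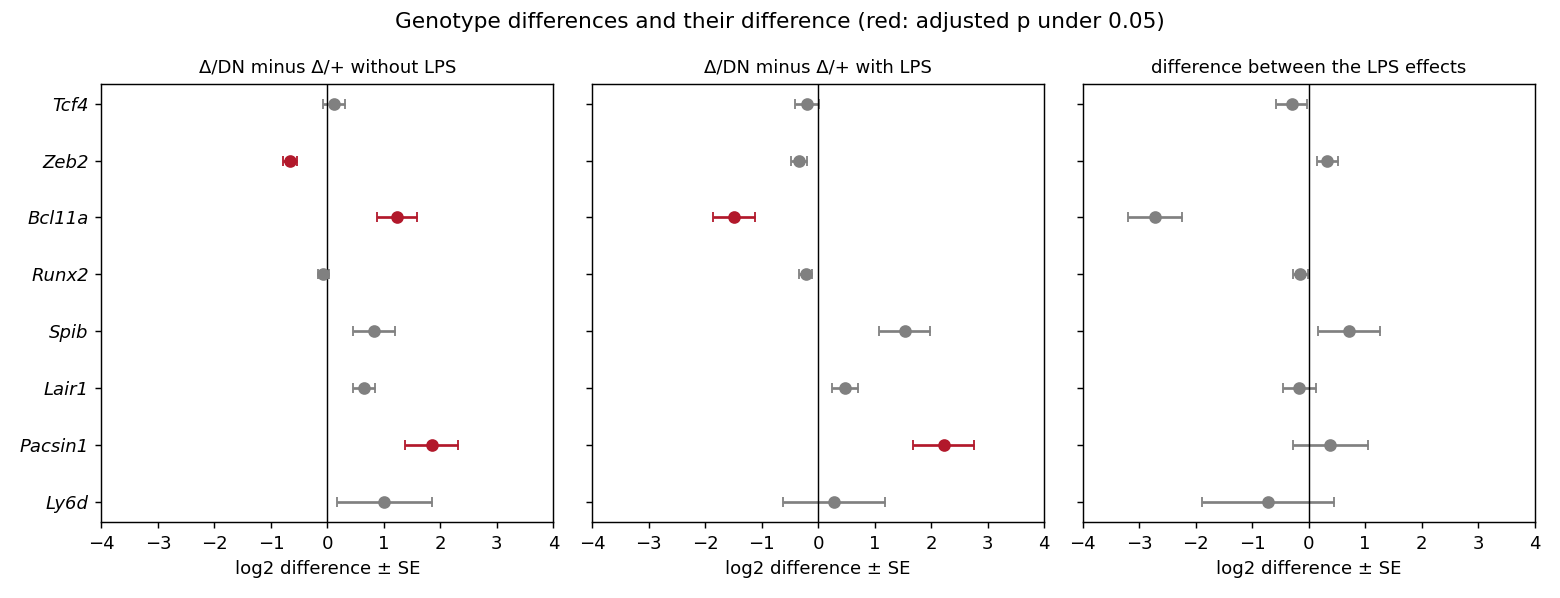
Log2 difference between genotypes (Δ/DN minus Δ/+) without LPS and with LPS, and the difference between the LPS effects of the genotypes (horizontal axes), for the 8 members; points are edgeR estimates, bars are 1 SE, and red marks an adjusted p under 0.05. Bcl11a lies at 1.23 without LPS and -1.49 with LPS, and Pacsin1 at 1.84 and 2.22.

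Whether LPS acted differently in the genotypes was tested by the difference between the LPS effects. No member passed, when 0.00479% of genes did (1 gene), so 0 of 8 members were called with edgeR, while 1 had an unadjusted p under 0.05 and DESeq2 called 1. That member was Bcl11a in both cases. The log2 difference of its LPS effects, Δ/DN minus Δ/+, was -2.72 ± 0.48 (edgeR adjusted p = 0.161). In the 3 Δ/+ cultures Bcl11a rose 5.96-fold, 12.9-fold and 6.12-fold with LPS. In the Δ/DN cultures the ratio was 1.77, 1.85, 1.64 and 0.518. The ranges did not overlap, and Δ/DN culture 4 was the only culture in which Bcl11a was lower with LPS.

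The adjusted p of that Bcl11a difference was 0.0398 with the culture as a replicate block (log2 -2.58), which compares LPS and US within a culture. It was 0.000233 with DESeq2 and 0.00147 with no filter on low counts. It was 0.0562 without Δ/DN culture 3 (-2.82), 0.268 without Δ/DN culture 4 (-2.22) and 0.184 within library set 2 (-2.11). The direction was the same in all of the 23 settings tried. For Zeb2 the difference between LPS effects was 0.33 ± 0.18 (adjusted p = 0.644), and no other member had an unadjusted p under 0.05. A missed threshold does not show that LPS acted alike on those members.

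Marker sums of neutrophils and progenitors were higher in some Δ/DN cultures, and their ranges overlapped those of Δ/+ without LPS but not with it. The neutrophil sum (8 genes) was 128 to 209 CPM in Δ/+ US, 112 to 164 CPM in Δ/+ LPS, 174 to 1107 CPM in Δ/DN US and 177 to 1253 CPM in Δ/DN LPS. It was highest in Δ/DN culture 4 and next in Δ/DN culture 2, at 426 CPM (US) and 427 CPM (LPS), the culture with the highest Pacsin1 and Spib. The progenitor sum (8 genes) was 18.5 to 21.6 CPM in Δ/+ US and 17.7 to 49.2 CPM in Δ/DN US, and 19.2 to 21.2 CPM in Δ/+ LPS and 26.9 to 59.4 CPM in Δ/DN LPS. Of the 8 neutrophil markers 1 was called higher in Δ/DN in each treatment, or 12.5%, and of the 8 progenitor markers 2 were, or 25.0%, with 0 lower in either list. Over all genes tested 10.5% were called without LPS and 8.6% with it, so the neutrophil share was near that of all genes. All genes of both lists were detected in at least 1 library.

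Of the 12 conventional dendritic cell markers, 5 were higher and 0 lower in Δ/DN without LPS, which is 41.7% when 10.5% of all genes were called. The 4 with the smallest p were Cd24a (0.84 ± 0.15), Kmo (2.06 ± 0.40), Xcr1, a chemokine receptor of cross-presenting dendritic cells (2.64 ± 0.61), and Itgae, the CD103 integrin chain (1.77 ± 0.44). Xcr1 was near the detection limit, with 0 to 5 reads in Δ/+ US and 8 to 32 reads in Δ/DN US. With LPS 1 was higher and 0 lower, or 8.33% when 8.6% of all genes were called. Their sum was 1190 to 1401 CPM in Δ/+ US and 1375 to 1560 CPM in Δ/DN US, and 1701 to 1969 CPM in Δ/+ LPS and 1725 to 2437 CPM in Δ/DN LPS, overlapping between genotypes in both treatments. Of the 10 macrophage markers, 3 complement genes were higher (C1qa, C1qb and C1qc) and Cd68 was lower without LPS, or 40.0%, and C1qa was higher and Cd68 lower with it, or 20.0%. The macrophage sum was 1472 to 1913 CPM in Δ/+ US, 1383 to 1917 CPM in Δ/DN US, 1702 to 1738 CPM in Δ/+ LPS and 1299 to 1932 CPM in Δ/DN LPS. The part of any of these cells in the differences of the members was not tested.

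The called members were also compared without each culture that stood apart. Without Δ/DN culture 4, the Pacsin1 difference was 1.70 without LPS and 2.15 with it (adjusted p of 0.0517 and 0.0328), and the Bcl11a difference was 0.93 and -1.29 (adjusted p of 0.0767 and 0.0247). Without Δ/DN culture 3, Pacsin1 was at 1.94 and 2.24 (adjusted p of 0.0213 and 0.0247) and Bcl11a at 1.29 and -1.53 (adjusted p of 0.0360 and 0.0232). Leaving out culture 4 thus ended the Pacsin1 and Bcl11a calls made without LPS and neither of those made with it. Leaving out culture 3 ended none of these 4. The Zeb2 call made without LPS held without either culture, as given above.

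Other plasmacytoid genes were read from a list of 30, of which 28 were tested. Without LPS, 5 were higher and 0 lower in Δ/DN, which is 17.9% when 10.5% of all genes were called, with a median log2 difference of 0.18. The 4 with the smallest p were Tlr9, the endosomal DNA sensor (1.10 ± 0.19, adjusted p = 0.00706), Pld4, an endosomal nuclease (0.59 ± 0.14, adjusted p = 0.0180), Map4k1, a kinase of antigen receptor signalling (1.05 ± 0.25, adjusted p = 0.0236), and Blnk, an adaptor of the same pathway (0.48 ± 0.14, adjusted p = 0.0413). With LPS, 3 were higher and 0 lower, or 10.7% when 8.6% of all genes were called, with a median of 0.17. They were Tlr9 (1.38 ± 0.21, adjusted p = 0.00547), Map4k1 (1.74 ± 0.30, adjusted p = 0.00893) and Smim5, a small membrane protein (1.66 ± 0.46, adjusted p = 0.0403). Tlr9 was at 11.3 to 20.7 CPM in Δ/+ US and 24.8 to 40.6 CPM in Δ/DN US, and at 20.5 to 29.1 CPM in Δ/+ LPS and 36.6 to 90.5 CPM in Δ/DN LPS. The genotypes did not overlap in either treatment. Without Δ/DN culture 3, 4 of the 5 calls made without LPS held and that of Blnk was lost (0.44, adjusted p = 0.0531). Without Δ/DN culture 4, 3 of the 5 held, those of Map4k1 (0.92, adjusted p = 0.0527) and Rpgrip1 (1.502, adjusted p = 0.0909) being lost. With LPS all 3 calls held without culture 3, and that of Smim5 was lost without culture 4 (1.51, adjusted p = 0.0617).

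LPS raised 10 and lowered 5 of these 28 genes in each genotype, which is 53.6% and near the 47.7% and 48.2% over all genes. The median log2 change was 0.20 in Δ/+ and 0.65 in Δ/DN. Tlr7, the endosomal RNA sensor, rose by 2.63 ± 0.16 in Δ/+ and 2.11 ± 0.15 in Δ/DN, and Blnk by 2.22 ± 0.15 and 2.03 ± 0.14. Tex2 changed by -1.42 ± 0.10 in Δ/+ and -1.17 ± 0.09 in Δ/DN. Cybb, a subunit of the phagocyte NADPH oxidase, rose by 1.89 ± 0.16 and 1.64 ± 0.15. Among the defining genes, Irf7, which drives interferon genes, rose by 4.40 ± 0.83 in Δ/+ and 3.28 ± 0.80 in Δ/DN (adjusted p = 0.000920 and 0.00509). Irf8, a factor of dendritic cell lineages, rose by 1.78 ± 0.24 and 2.09 ± 0.23, and Bst2, an interferon-induced surface antigen, by 2.48 ± 0.47 and 1.48 ± 0.44. Ccr9 also rose, by 2.75 ± 0.36 and 1.94 ± 0.32, from at most 0.507 CPM without LPS. Siglech changed by -1.51 ± 1.10 in Δ/+ and 0.49 ± 1.07 in Δ/DN (adjusted p of 0.284 and 0.744) and did not pass the test.

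**Figure D4:**
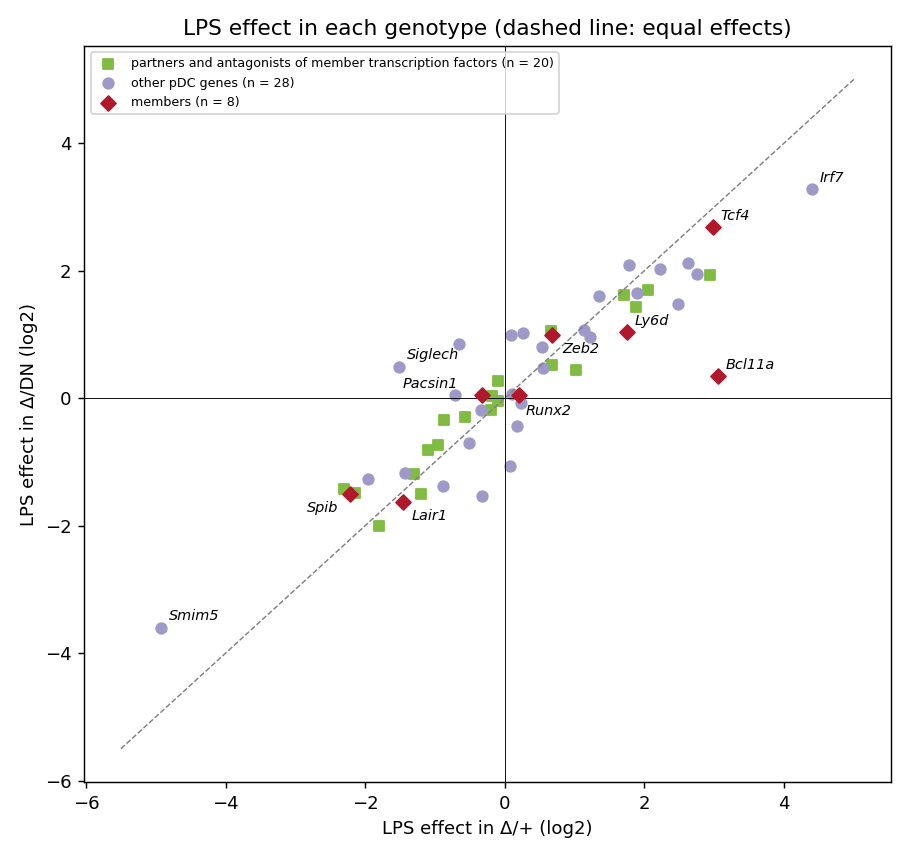
Log2 change with LPS in Δ/+ (horizontal axis) against that in Δ/DN (vertical axis) for the 8 members, 28 other plasmacytoid genes and 20 partners or antagonists of the member transcription factors; each point is 1 gene, and the dashed line marks equal change. Tcf4, Spib, Lair1 and Zeb2 lie nearer the line than Bcl11a, which lies below it at 3.06 and 0.34.

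The partners and antagonists of the member factors numbered 21, of which 20 were tested and Bcl11b did not pass the filter. LPS raised 7 and lowered 8 of them in Δ/+ (75.0%) and raised 6 and lowered 8 in Δ/DN (70.0%), when 47.7% and 48.2% of all genes were called, with medians of -0.19 and -0.12. While Tcf4 rose, Tcf12, the gene of a related E protein, fell by 0.87 in Δ/+ and by 0.34 in Δ/DN on the log2 scale (SE 0.09 and 0.08). Id1, an inhibitor of E proteins, changed by -2.15 ± 0.21 and -1.48 ± 0.19, the opposite direction to Id2. Runx1, of the same family as Runx2, changed by -1.30 ± 0.09 and -1.19 ± 0.08. Stat3 rose by 2.05 ± 0.17 and 1.70 ± 0.16, and Ikzf1, a zinc-finger factor of lymphoid cells, rose by 1.71 ± 0.18 and 1.61 ± 0.17.

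Between genotypes without LPS, 0 of the 20 partners were higher and 3 were lower in Δ/DN, or 15% when 10.5% of all genes were called, with a median of -0.16. They were Id1 (-0.92 ± 0.19, adjusted p = 0.0123), Runx1 (-0.39 ± 0.08, adjusted p = 0.0148) and Tcf12 (-0.36 ± 0.08, adjusted p = 0.0156). With LPS, 2 were higher and 2 lower, or 20.0% when 8.6% of all genes were called, with a median of 0.09. Cbfa2t3, a corepressor that works with E proteins, was higher in Δ/DN (1.32 ± 0.26, adjusted p = 0.0141), as was Runx3 (0.97 ± 0.26, adjusted p = 0.0390). Nfil3, a factor of conventional dendritic cell development (-1.03 ± 0.20, adjusted p = 0.0135), and Spic, an ETS factor related to Spib (-1.46 ± 0.32, adjusted p = 0.0175), were lower. All 7 of these calls held without Δ/DN culture 3 and without Δ/DN culture 4. Id2 differed by -0.39 ± 0.15 without LPS and 0.01 ± 0.17 with it (adjusted p of 0.112 and 0.985). All these comparisons share their libraries with the LPS comparisons above.

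For each member the genes with the nearest profile over the 15 libraries were found among 13929 genes, by the root mean square difference of centred log2 CPM, as a description in which all points share the libraries. The nearest to Tcf4 were Zup1 (0.15), Stat5a (0.16) and Traf1 (0.19), when Tcf4 itself varied by 1.45 about its mean. Zeb2 was followed most closely by Fndc3b (0.10), Hipk3 (0.11) and Lats1 (0.13), when Zeb2 varied by 0.49. Lair1 had Prkch (0.14), Cyb5r1 (0.18) and Slc35c2 (0.18) beside a variation of 0.88. These 3 members, all well above the detection limit, had near matches. The nearest genes lay farther off for Spib (Flnc 0.36, Ablim1 0.38 and Zfp862-ps 0.40, beside 1.12) and for Pacsin1 (Nedd4 0.41, Stum 0.41 and Trp53cor1 0.43, beside 1.14). Bcl11a had Bckdhb (0.58), Gbp8 (0.59) and Kitl (0.59) beside 1.13, and Ly6d had Gstm1 (0.87), Slco4a1 (0.88) and 2900089D17Rik (0.88) beside 1.21. Runx2 had Rab11fip2 (0.11), Rps29 (0.12) and Pwwp2a (0.12), but itself varied by only 0.18, so nearness says little there.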

How the data were processed

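The authors deposited 1 table per library with whole-number read counts per gene and a length. Tools listed in the submitters' processing notes are HISAT2 2.2.1, Trimmomatic 0.33, FastQC, bedtools, featureCounts and edgeR, and the build is GRCm39 (mm39). Their parameters and the use of strand are not given in the sources used here. The count of 2 was commoner than 1 or 3 in 12 of 15 tables.

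Counts were tested with edgeR 4.0.16 (limma 3.58.1, R 4.3.3), quasi-likelihood F test with robust dispersion, TMM, the filterByExpr filter (minimum count 10) with p-values adjusted by Benjamini-Hochberg across the 20865 genes kept. All 15 libraries entered 1 model of 4 groups plus library set, with 10 residual degrees of freedom. The fit was also run on simulated counts in which only genotype differences were set, with no LPS or library set effect. That run therefore does not test the LPS comparisons. CPM uses TMM-scaled totals. The TMM factors were 1.15 to 1.23 in Δ/+ US, 0.734 to 0.778 in Δ/+ LPS, 1.04 to 1.33 in Δ/DN US and 0.775 to 0.940 in Δ/DN LPS. They thus differed between the treatments, and changes with LPS depend on them. Levels per kilobase use the exon union of a GENCODE annotation and not the deposited length as planned, since the latter exceeded the exon union for 7 of 8 members (Tcf4, 492550 against 27382 bases). Floors are 3 counts and take each count as independent, which the excess of counts of 2 leaves uncertain. Alternatives are DESeq2 1.42.0, RLE factors, no filter, no set term, set 2 alone, blocks, and libraries left out; leaving out Δ/DN culture 4 was added after seeing the data.

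The members and lists were chosen with earlier results of these data known. Named are all members, from each list at most 4 called genes of smallest p per comparison, the defining genes Siglech, Bst2, Ccr9, Irf7, Irf8 and Id2, and the 3 genes of mean CPM of at least 1 nearest to each member. The US and LPS library of a culture were paired by the shared culture code in their names. Their deviations from the group means correlated at 0.06 to 0.43 over 7 pairs, against -0.23 to 0.14 between cultures of a genotype.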

Additional observations from a re-analysis of the deposited data

How the results depend on the processing

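Over the 677 refitted values of single members, 615 kept direction and call, 28 lost the call, 18 gained it and 16 turned round. The calls of Tcf4, Spib, Lair1 and Zeb2 with LPS in both genotypes, and of Bcl11a with LPS in Δ/+, held in each alternative run. Each run scaled libraries by TMM, RLE or DESeq2 factors, and none by library totals alone. These runs therefore do not test how far changes with LPS rest on that scaling, as given above for Zeb2 and Runx2. Without LPS, members called between genotypes went from 3 to 1 with library set 2 alone, 4 with DESeq2 and without Δ/DN culture 3 (Lair1 gained), 2 with no filter, with no library set term and without Δ/DN culture 4, and 3 with RLE factors, and ranged from 0 to 3 with each replicate left out. With LPS they went from 2 to 1 with no filter, with no library set term and with set 2 alone, 3 with DESeq2 and without Δ/DN culture 4 (Spib gained), and 2 with RLE factors and without Δ/DN culture 3, and ranged from 0 to 3 with replicates left out. Members called for the difference between LPS effects went from 0 to 1 with DESeq2, with no filter and with the replicate block by culture. That block changed no other call. Replicate numbers across genotypes are only numbers (correlation -0.09 to 0.15, 7 pairs); a replicate block by number called 3 members in each treatment (Lair1 0.83 and Spib 1.64 gained, Bcl11a 1.13 without LPS lost). With each replicate left out the LPS comparison called 5 to 6 members in Δ/+ and 4 in Δ/DN.

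Directions that turned round were all of values that did not pass the test. Without LPS, Tcf4 between genotypes went to -0.21 (set 2 alone), -0.027 (without Δ/DN culture 3), and ranged from -0.14 to 0.22 with replicates left out (-0.053 without Δ/DN US replicate 3). Ly6d between genotypes with LPS went to -0.27 with the replicate block by number, and ranged from -0.071 to 0.68 with replicates left out. With replicates left out, Pacsin1 with LPS ranged from -0.60 to 0.085 in Δ/+ and from -0.17 to 0.34 in Δ/DN (-0.0099 with set 2 alone), and its difference between LPS effects from -0.035 to 0.65. Runx2 with LPS in Δ/DN went to -0.028 without culture 3 and ranged from -0.035 to 0.14 with replicates left out. The cause was not tested in any of these.

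Over all genes, the number called between genotypes without LPS was 2184 and ranged from 1270 to 3994 over other settings and from 173 to 3392 with replicates left out. With LPS it was 1795, with ranges of 1456 to 3809 and 92 to 2238. For the difference between LPS effects it was 1, with ranges of 1 to 156 and 0 to 16. Adjusted p-values of Ly6d that DESeq2 gave as missing in 3 comparisons were left out. Depth limits Ly6d and Bcl11a most, with at most 38 and 268 reads in a library.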
